A study of Homo sapiens with 2 samples.

Results

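The genes described here encode proteins that choose which splice sites of a pre-messenger RNA are used: the SR proteins, the hnRNPs, and the tissue-type and 3' splice site factors that work beside them. They were taken from the deposited counts by symbol, as SRSF followed by digits, any symbol starting with HNRNP, and a set of 14 further genes (TRA2A, TRA2B, PTBP1, PTBP2, PTBP3, MBNL1, MBNL2, RBFOX2, CELF1, QKI, SF1, SF3B1, U2AF1 and U2AF2). Of 57 symbols that matched, 4 pseudogenes and 1 antisense RNA were left out, which gave 52 genes out of 24462 symbols. MDA-MB-231 is an established human triple negative breast cancer line, and its radiotherapy-resistant derivative, RT-R-MDA-MB-231, came from X-ray doses of 2 Gy that summed to 50 Gy. Both lines grew in the same serum-supplemented RPMI 1640 medium. Each was represented by 1 library, and the labels do not say whether the derivative is a single clone or a pool.

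SR proteins carry RNA recognition motifs and a tail of repeated arginine and serine residues. They bind exonic enhancers and draw the spliceosome to nearby splice sites, and kinases of the SRPK and CLK families phosphorylate the tail to control where the proteins act. The hnRNPs bind the same transcripts, often at silencer sequences, and in many exons oppose the SR proteins. Many members of both families limit their own messenger RNA through exons that lead to its decay. The libraries read the ends of polyadenylated transcripts, so they give the level of each gene and not the use of any exon.

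As measures of the whole data, the parental library held 9255008 counts and the RT-R library 10014804. The 5 markers of the line were present in both libraries. The mesenchymal filament gene VIM had 4310 parental and 8454 RT-R counts, AXL 6995 and 9663, CD44 2560 and 3129, and EGFR 444 and 749. CAV1, with 4816 and 4001, was lower in RT-R. ESR1 and PGR, the hormone receptor genes, had 0 and 0 parental counts and 1 and 0 RT-R counts. Other genes expected to be low in this line were detected: ERBB2 (230 and 174 counts), GATA3 (152 and 113), CDH1 (32 and 68) and EPCAM (15 and 26). Among markers of other cell types, PTPRC, CD3E and PDGFRA had 0 counts in both libraries, VWF and HBB at most 1, MYH11 had 42 and 78, and PECAM1 had 223 and 50. Since each line had 1 library, the differences below lack a replicate check and carry no p-value. Every interval is a 95% exact interval for counting error alone, which covers neither variation between cultures nor PCR copies of a molecule.

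A sequence feature bears on several of the counts below and is described first. HNRNPA1, an abundant splicing repressor in most proliferating cells, had only 52 parental and 55 RT-R counts here, whereas the row of its processed pseudogene HNRNPA1P10 had 1158 and 1077. HNRNPA1L2, an intronless protein-coding copy, had 200 and 269. Over 959 aligned bases, the GENCODE release 29 model of HNRNPA1P10 differed from the HNRNPA1 coding sequence at 4 positions (99.6% identity), and the coding sequence of HNRNPA1L2 differed at 15 of 960 (98.4%). These identities cover coding bases, whereas the libraries read transcript ends. In the search of transcript ends described next, 5 genes shared windows with HNRNPA1. HNRNPA1L2 was among them and HNRNPA1P10 was not. The HNRNPA1P10 model has 962 bases, and 959 of them aligned to coding sequence. The search could therefore not show whether HNRNPA1P10 shares sequence with HNRNPA1 beyond the coding bases. How the reads of these genes were divided in the authors' counting was not tested. The sum of the 3 rows was 1410 parental and 1401 RT-R counts, a ratio of 0.891 (0.827 to 0.96), against 0.948 (0.637 to 1.41) for the HNRNPA1 row alone.

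The same question was put to every member. In the last 300 bases of each member's GENCODE transcripts, all windows of 50 bases were searched for in the transcripts of other genes, and 38 of the 52 members shared none. The windows of HNRNPCL4 (100%), HNRNPCL3 (90.8%), HNRNPA1L2 (61.0%), HNRNPCL1 (49.4%) and HNRNPCL2 (27.1%) were shared with their own close copies. All windows of U2AF1 also matched U2AF1L5, a copy in the newer genome build, whereas the counts were made on hg19. All windows of HNRNPUL2-BSCL2, a readthrough transcript, were those of BSCL2, the gene downstream. SRSF1 (24.9%), HNRNPA1 (23.0%), HNRNPL (21.1%), HNRNPC (8.28%), HNRNPR (7.05%), SRSF10 (3.29%) and SRSF3 (1.99%) shared part of their windows. U2AF1 matched only U2AF1L5, the copy in the newer build. For the other members listed, reads from the shared windows cannot be assigned to 1 gene by sequence. The percentages do not measure how far a count is off.

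Most of the splicing factor genes differed little between the lines. Of the 52 members, 50 reached 20 counts in either library and are called measured here. The others were SRSF12, with 5 and 4 counts, and HNRNPCL2, with 2 and 9. The 52 genes together took 1.32% of the counts in each library. Their summed level was 13427 CPM (counts scaled to library size) in the parental and 13020 CPM in the RT-R library after scaling of the libraries by the trimmed mean of M-values (TMM). The ratio of RT-R to parental for the sum was 0.970 (0.962 to 0.977), and it was 0.999 (0.992 to 1.01) when the libraries were scaled by total counts. The median log2 ratio of the 50 measured members was 0.01, with 25 above and 25 below 0, against -0.01 over all 12644 measured genes. The median absolute log2 ratio was 0.19 for the members and 0.34 over all measured genes. Of the members, 44 of 50 (88.0%) lay within 1.5-fold of equal, against 72.5% of all measured genes. Abundant genes as a whole varied less than others. The order stayed when the comparison was limited to genes reaching 1000 counts in either library, a setting chosen after seeing the data. There, 33 of 34 members (97.1%) lay within 1.5-fold, against 81.8% of 2257 genes. The limit did not match abundance, with median parental counts of 2878.5 for these members and 1635 for these genes.

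**Figure D1:**
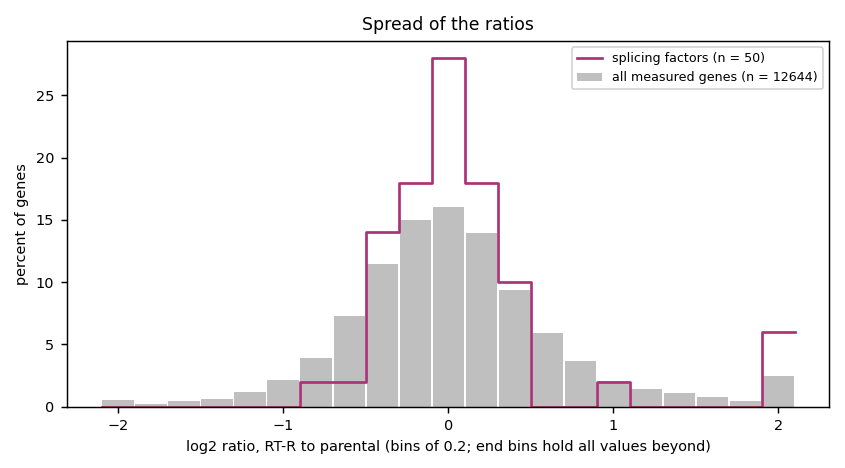
Percent of genes in bins of 0.2 of the log2 ratio of RT-R to parental, for all 12644 measured genes (grey bars) and for the 50 measured splicing factors (line). The splicing factors gather near 0, with 44 of 50 within 1.5-fold of equal, and the 3 in the end bin on the right are HNRNPCL1, HNRNPCL3 and HNRNPCL4.

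Calls required 20 or more counts in either library, a ratio beyond the stated fold and an interval that left out 1. At 2-fold, 3 members were called higher and 0 lower, where 6.89% of all measured genes were called higher and 3.97% lower. The 3 were HNRNPCL1, HNRNPCL3 and HNRNPCL4, intronless copies of HNRNPC, and each had exactly 6 parental and 27 RT-R counts, a ratio of 4.03 (1.63 to 11.95). HNRNPCL2 had 2 and 9, the same proportion. The 3 identical rows share transcript sequence with their copies and are not independent of one another. Without the 4 HNRNPCL rows and the readthrough row, 0 of 46 measured members were called at 2-fold. At 1.5-fold, 4 members were called higher and 2 lower, against 13.7% and 11.9% of all measured genes. Beyond the HNRNPCL rows these were MBNL2, higher, and HNRNPH2 and HNRNPUL2, lower. Counting intervals were narrow for such abundant genes: 19 members had an interval above 1 and 17 below 1. Of all measured genes, 27.7% had one above and 30.4% one below. Among genes reaching 1000 counts in either library, 811 of 2257 had one above and 1055 one below. Of the 34 members reaching that count, 12 had one above and 14 one below. Under all 4 ways of scaling the libraries, 19 members kept an interval above 1, 14 kept one below and 11 kept one that held 1. The side of the interval changed with the scaling for HNRNPA0, HNRNPF, HNRNPLL, HNRNPC, TRA2A and TRA2B.

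**Figure D2:**
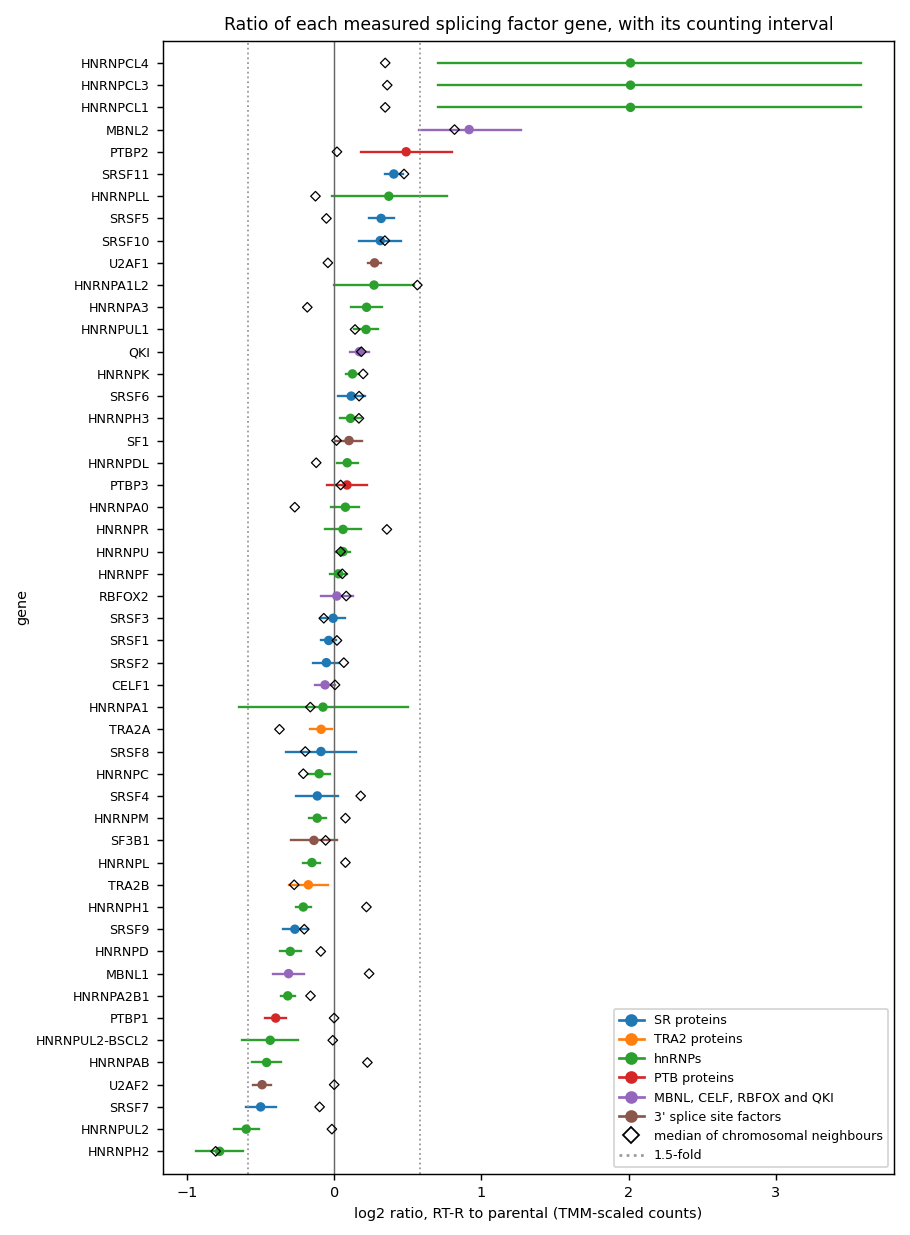
Log2 ratio of RT-R to parental for each of the 50 measured members (points, coloured by role, from counts without a pseudocount) with its 95% counting interval (lines). Open diamonds are the median log2 ratio of the 15 measured genes on each side on the chromosome, and dotted lines mark 1.5-fold. MBNL2 and HNRNPH2 lie beside the diamonds of their own neighbourhoods, HNRNPUL2 does not.

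Among the SR proteins, no gene of 11 measured was called at 1.5-fold in either direction. Of all measured genes, 13.7% were called higher and 11.9% lower. Of genes reaching 1000 counts in either library, 8.33% and 9.88% were. With 11 genes, a count of 0 is not far from these shares. The summed SR level had a ratio of 1.03 (1.01 to 1.05). SRSF1, the founding member of the family and a factor tied to growth in breast cancer, had 5668 parental and 6158 RT-R counts, which is 622 and 606 CPM. It had a ratio of 0.974 (0.939 to 1.01). SRSF2, which binds both C-rich and G-rich exonic enhancers, had 2023 and 2174 counts, and SRSF3, the smallest of the family, had 2264 and 2512. Their ratios were 0.964 (0.907 to 1.02) and 0.995 (0.9396 to 1.05). These 3 intervals held 1 under every scaling tried. SRSF4 (808 and 832 counts, 0.923) and SRSF8 (294 and 308, 0.939), a retrocopy relative of SRSF2, also had intervals that held 1.

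The SR genes that stood highest in RT-R were SRSF11, SRSF5 and SRSF10. SRSF11, an SR-like protein, had 3500 and 5167 counts, a ratio of 1.32 (1.27 to 1.38). SRSF5 had 1940 and 2698 counts, a ratio of 1.25 (1.18 to 1.32). SRSF10, which turns into a general splicing repressor when it loses its phosphates, had 696 and 964 counts, a ratio of 1.24 (1.13 to 1.37). SRSF11 and SRSF10 lie on chromosome 1 in neighbourhoods whose median log2 ratios were 0.47 and 0.34, next to 0.40 and 0.31 for the genes themselves. The neighbours of SRSF5 on chromosome 14 had a median of -0.05 against its 0.32. SRSF6 was 1.08-fold higher (1.02 to 1.15), with 1759 and 2125 counts.

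SRSF7 and SRSF9 lay lower. SRSF7, which has a zinc knuckle beside its RNA recognition motif and also serves in messenger RNA export, had 1798 and 1418 counts, 1.41-fold lower (1.32 to 1.52). SRSF9, the closest relative of SRSF1, had 2451 and 2271 counts, 1.20-fold lower (1.14 to 1.27). The neighbours of SRSF9 on chromosome 12 had a median log2 ratio of -0.20 against its -0.27, and those of SRSF7 on chromosome 2 had -0.10 against its -0.50. SRSF9 made up 30.2% (29.2 to 31.2) of the counts of the pair with SRSF1 in the parental library and 26.9% (26.0 to 27.9) in RT-R. SRSF7 made up 44.3% (42.7 to 45.8) of its pair with SRSF3 in the parental library and 36.1% (34.6 to 37.6) in RT-R, a pair set after the data were seen. Shares within a family do not depend on how the libraries are scaled. In the group of SRSF4, SRSF5 and SRSF6, the share of SRSF5 was 43.0% (41.6 to 44.5) and 47.7% (46.4 to 49.0). SRSF2 held 87.3% and 87.6% of its pair with SRSF8, with intervals that overlapped.

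The promoters of SRSF5 and SRSF7, the SR genes that differed most in opposite directions apart from SRSF11, are shown from 250 bases before to 50 bases after the start site (RefSeq, GRCh38.p14, 5′ to 3′ on the strand of the gene). Capitals mark matches on both strands to short motifs, which may overlap. The core promoter motifs searched were the TATA box, spelled TATAAA, and the CCAAT box, which is searched by the letters of its name. The GC box, where SP1 family factors bind, was searched as GGGCGG. For the ETS family the letters were CCGGAAG, and for the E-box of MYC and USF factors they were CACGTG. The cyclic AMP response element, or CRE, was searched with its full palindrome TGACGTCA, and the YY1 motif was searched as AAGATGG.
SRSF5 (chr14:69766892-69767191, plus strand): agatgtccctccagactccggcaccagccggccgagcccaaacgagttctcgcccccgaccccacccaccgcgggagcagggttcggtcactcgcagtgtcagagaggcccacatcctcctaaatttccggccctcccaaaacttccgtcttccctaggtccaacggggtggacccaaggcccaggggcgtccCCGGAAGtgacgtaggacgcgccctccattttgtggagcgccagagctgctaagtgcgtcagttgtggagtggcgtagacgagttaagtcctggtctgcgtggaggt
SRSF7 (chr2:38751312-38751611, minus strand): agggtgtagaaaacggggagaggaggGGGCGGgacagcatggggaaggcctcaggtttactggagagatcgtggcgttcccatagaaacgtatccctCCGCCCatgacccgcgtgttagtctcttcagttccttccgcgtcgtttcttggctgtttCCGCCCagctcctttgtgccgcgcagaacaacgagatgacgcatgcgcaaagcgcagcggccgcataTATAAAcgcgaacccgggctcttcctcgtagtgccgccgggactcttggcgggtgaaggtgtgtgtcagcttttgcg
The SRSF5 window held 1 ETS match and no other, and this SRSF7 window, 1 of 2 in the table, held 1 TATA box and 3 GC boxes. A match is a description of letters and not a site.

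TRA2A and TRA2B, relatives of SR proteins that activate exons with GAA-rich enhancers, had 2764 and 2898, and 940 and 928 counts. TRA2A was 1.06-fold lower (1.01 to 1.12) and TRA2B 1.13-fold lower (1.03 to 1.24), and with total-count scaling both intervals held 1. The share of TRA2B in the pair was 25.4% (24.0 to 26.8) and 24.3% (22.9 to 25.6), with overlapping intervals.

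**Figure D3:**
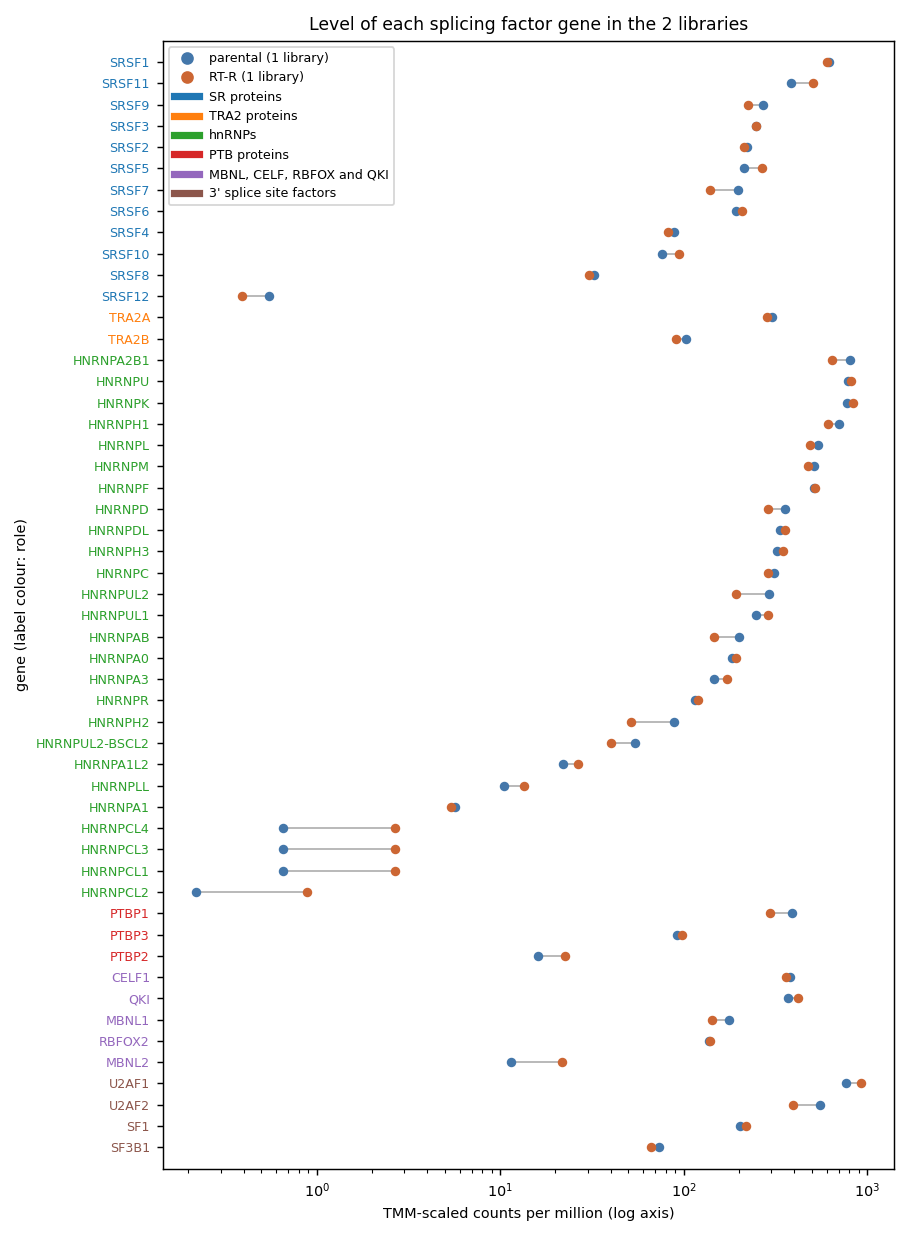
Level of each of the 52 members in TMM-scaled CPM on a log axis, with 1 point per library (blue parental, orange RT-R) and gene labels coloured by role. Most pairs of points touch, and the 4 HNRNPCL rows at the low end are the farthest apart.

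In a 3' tag library each transcript gives tags from its end only, so levels of different genes can be set side by side without a correction for length, within the limits of how the ends were annotated. The 5 members with most counts in the parental library were HNRNPA2B1 (7304 counts), HNRNPU (7133), HNRNPK (7034), U2AF1 (6983) and HNRNPH1 (6414). The same 5 led in RT-R in another order, with U2AF1 (9416) ahead of HNRNPK (8546), HNRNPU (8287), HNRNPA2B1 (6545) and HNRNPH1 (6183). HNRNPK, which binds cytosine-rich RNA and also DNA, was 1.09-fold higher (1.06 to 1.12). HNRNPU, a nuclear scaffold protein that binds chromatin-associated RNA, was 1.04-fold higher (1.01 to 1.08). The summed hnRNP level had a ratio of 0.947 (0.937 to 0.957).

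Of 25 measured hnRNP rows, 10 had an interval above 1 and 10 below, against 27.7% and 30.4% of all measured genes. Among genes reaching 1000 counts in either library, 811 of 2257 had one above and 1055 one below. The hnRNP rows above 1 include the identical HNRNPCL1, HNRNPCL3 and HNRNPCL4. Those below include the readthrough HNRNPUL2-BSCL2, so the rows are not all independent. The lowest hnRNP ratio was that of HNRNPH2, a G-run binding protein encoded on the X chromosome. It had 803 parental and 522 RT-R counts, 1.72-fold lower (1.53 to 1.92). Its log2 ratio of -0.78 lay beside a median of -0.81 for its chromosomal neighbours and -0.78 for the 424 measured genes of the X. The row of the readthrough RPL36A-HNRNPH2, which covers the same locus, had 1056 and 838 counts, and summed with HNRNPH2 the ratio was 0.656 (0.611 to 0.704). The autosomal relatives of HNRNPH2 had more counts and smaller differences. HNRNPH1 had 6414 and 6183 counts, 1.16-fold lower (1.12 to 1.20), HNRNPF had 4653 and 5295, a ratio of 1.02 (0.981 to 1.06), and HNRNPH3 had 2937 and 3536, a ratio of 1.08 (1.03 to 1.13). HNRNPH2 made up 5.42% (5.06 to 5.80) of the counts of these 4 genes in the parental library and 3.36% (3.08 to 3.66) in RT-R.

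HNRNPUL2, a relative of HNRNPU, had 2652 and 1954 counts, 1.51-fold lower (1.43 to 1.61). Its neighbours on chromosome 11 had a median log2 ratio of -0.02 against its -0.60. It passed the 1.5-fold limit narrowly, and with scaling by total counts its log2 ratio of -0.55 did not. The other relative, HNRNPUL1, which shares the SAP and SPRY domains, had 2260 and 2928 counts, a ratio of 1.16 (1.10 to 1.23). Thus HNRNPUL2 took 22.0% (21.3 to 22.8) of the counts of HNRNPU, HNRNPUL1 and HNRNPUL2 in the parental library and 14.8% (14.2 to 15.5) in RT-R, and HNRNPUL1 took 18.8% (18.1 to 19.5) and 22.2% (21.5 to 23.0). The readthrough row HNRNPUL2-BSCL2 had 497 and 410 counts and BSCL2 itself 471 and 379, ratios of 0.740 (0.647 to 0.845) and 0.722 (0.629 to 0.828).

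The A/B and D groups also held members that went apart. HNRNPA2B1, which also carries RNAs to the cytoplasm and into vesicles, was 1.24-fold lower (1.20 to 1.29), while HNRNPA3 had 1339 and 1739 counts, 1.16-fold higher (1.08 to 1.25). The share of HNRNPA3 among HNRNPA1, HNRNPA2B1 and HNRNPA3 was 15.4% (14.6 to 16.2) in the parental library and 20.9% (19.99 to 21.7) in RT-R. This share counts only the HNRNPA1 row (52 and 55 counts) and leaves out HNRNPA1P10 (1158 and 1077) and HNRNPA1L2 (200 and 269). With those rows added to the family the share of HNRNPA3 would be smaller in both libraries, which its intervals do not cover. HNRNPA0 had 1666 and 1958 counts, a ratio of 1.05 (0.987 to 1.13). HNRNPAB had 1831 and 1485 counts, 1.38-fold lower (1.28 to 1.47), in a neighbourhood of chromosome 5 with a median log2 ratio of 0.23. HNRNPD, known as AUF1, which binds AU-rich elements and speeds the decay of messenger RNAs, had 3235 and 2933 counts, 1.23-fold lower (1.17 to 1.29). Its relative HNRNPDL had 3057 and 3624, a ratio of 1.06 (1.01 to 1.12). HNRNPDL accordingly made up 37.6% (36.6 to 38.7) of the counts of HNRNPD, HNRNPDL and HNRNPAB in the parental library and 45.1% (44.0 to 46.2) in RT-R.

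The remaining hnRNP ratios lay between 0.900 and 1.29. HNRNPC, which binds uridine tracts and keeps cryptic exons out of transcripts, had 2820 and 2929 counts, and HNRNPL, which binds CA repeats, had 4911 and 4930. HNRNPM had 4680 and 4816, and HNRNPR 1047 and 1217. Their ratios were 0.931 (0.884 to 0.981), 0.900 (0.865 to 0.937), 0.923 (0.886 to 0.961) and 1.04 (0.959 to 1.13). HNRNPLL, best known for switching CD45 exons in lymphocytes, had 95 and 137 counts, a ratio of 1.29 (0.988 to 1.70). HNRNPA1L2 on chromosome 13 had a ratio of 1.21 (1.00 to 1.46), and the neighbours of this gene had a median log2 ratio of 0.56 against its 0.27.

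The PTB proteins bind pyrimidine tracts and mostly repress exons, and PTBP1 keeps the level of PTBP2 down by promoting the decay of its transcript. PTBP1 had 3563 parental and 3016 RT-R counts, 1.32-fold lower (1.25 to 1.38). PTBP2, the form typical of neurons, had 147 and 230 counts, 1.40-fold higher (1.14 to 1.74). PTBP3, with 841 and 996 counts, was near equal at 1.06 (0.968 to 1.17). The intervals of PTBP1 and PTBP2 lay on opposite sides of 1 under every scaling tried, and neither gene reached 1.5-fold. Their chromosomal neighbours had median log2 ratios of -0.00 and 0.02. The share of PTBP1 in the counts of the 3 genes was 78.3% (77.1 to 79.5) in the parental library and 71.1% (69.7 to 72.5) in RT-R. PTBP2 took 3.23% (2.74 to 3.79) and 5.42% (4.76 to 6.15), and PTBP3 took 18.5% (17.4 to 19.6) and 23.5% (22.2 to 24.8).

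Among the genes of 3' splice site factors, the balance of U2AF1 and U2AF2 counts differed between the libraries. U2AF1 and U2AF2 encode the small and large subunits of U2AF, which bind the AG dinucleotide and the pyrimidine tract as a heterodimer. U2AF1 had 6983 and 9416 counts, 1.21-fold higher (1.17 to 1.25), and U2AF2 had 5025 and 3990, 1.40-fold lower (1.35 to 1.46). U2AF1 made up 58.2% (57.3 to 59.0) of the counts of the pair in the parental library and 70.2% (69.5 to 71.0) in RT-R. Neither gene followed its chromosomal neighbours, whose median log2 ratios were -0.04 and -0.00 against 0.27 and -0.49. SF1, which binds the branch point before the U2 snRNP does, had 1851 and 2213 counts, a ratio of 1.07 (1.01 to 1.14). SF3B1, the U2 subunit that holds the branch site and is mutated in several cancers, had 665 and 674, a ratio of 0.909 (0.815 to 1.01).

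The promoters of U2AF1 and U2AF2 and of PTBP1 and PTBP2, pairs whose partners lay on opposite sides of equal, are printed as above. The same motifs are in capitals. Other families, such as MBNL1 with MBNL2 and HNRNPUL1 with HNRNPUL2, also had members on opposite sides and are not printed.
U2AF1 (chr21:43107521-43107820, minus strand): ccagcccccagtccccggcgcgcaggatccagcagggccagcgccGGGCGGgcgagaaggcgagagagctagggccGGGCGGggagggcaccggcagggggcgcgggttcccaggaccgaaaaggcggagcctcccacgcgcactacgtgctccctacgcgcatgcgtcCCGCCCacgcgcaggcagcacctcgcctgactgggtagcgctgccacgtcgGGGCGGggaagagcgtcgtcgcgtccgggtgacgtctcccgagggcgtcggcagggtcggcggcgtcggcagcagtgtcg
U2AF2 (chr19:55654785-55655084, plus strand): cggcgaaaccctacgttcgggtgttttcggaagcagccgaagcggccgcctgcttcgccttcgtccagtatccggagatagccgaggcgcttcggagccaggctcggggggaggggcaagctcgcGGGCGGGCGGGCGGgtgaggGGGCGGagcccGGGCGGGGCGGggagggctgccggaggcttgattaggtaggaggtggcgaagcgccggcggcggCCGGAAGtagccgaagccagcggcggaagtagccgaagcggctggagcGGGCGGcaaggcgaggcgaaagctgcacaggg
PTBP1 (chr19:797202-797501, plus strand): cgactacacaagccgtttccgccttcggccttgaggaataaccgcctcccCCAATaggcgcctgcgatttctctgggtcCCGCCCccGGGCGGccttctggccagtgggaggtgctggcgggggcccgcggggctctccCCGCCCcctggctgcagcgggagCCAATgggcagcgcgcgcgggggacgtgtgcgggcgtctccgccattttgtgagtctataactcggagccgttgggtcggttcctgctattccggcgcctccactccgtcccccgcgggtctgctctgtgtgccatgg
PTBP2 (chr1:96722388-96722687, plus strand): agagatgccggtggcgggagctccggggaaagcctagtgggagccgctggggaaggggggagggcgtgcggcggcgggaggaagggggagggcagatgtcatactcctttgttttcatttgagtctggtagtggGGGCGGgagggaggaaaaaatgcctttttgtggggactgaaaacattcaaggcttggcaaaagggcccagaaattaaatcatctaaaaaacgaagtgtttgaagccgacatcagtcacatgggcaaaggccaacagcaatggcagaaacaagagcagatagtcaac
GC boxes numbered 4 in the U2AF1 window, 7 in that of U2AF2, where they overlap one another, 3 in this PTBP1 window, 1 of 2 in the table, and 1 in that of PTBP2. The U2AF2 window also held 1 ETS match and the PTBP1 window 2 CCAAT boxes. Windows of 46 of the 52 members were in the table, 69 in all, with a median GC content of 64.0% against 58.7% over 35116 windows. A GC box was in 58.0% of the member windows and 45.0% of all windows, and a CCAAT box in 43.5% and 34.6%. An E-box was in 15.9% and 7.26%, an ETS motif in 11.6% and 10.3%, and a TATA box in 8.70% and 11.5%. The CRE and YY1 letters were in 0 of the 69 member windows and in 1.85% and 5.84% of all. These shares are descriptions, since windows of 1 gene can overlap.

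**Figure D4:**
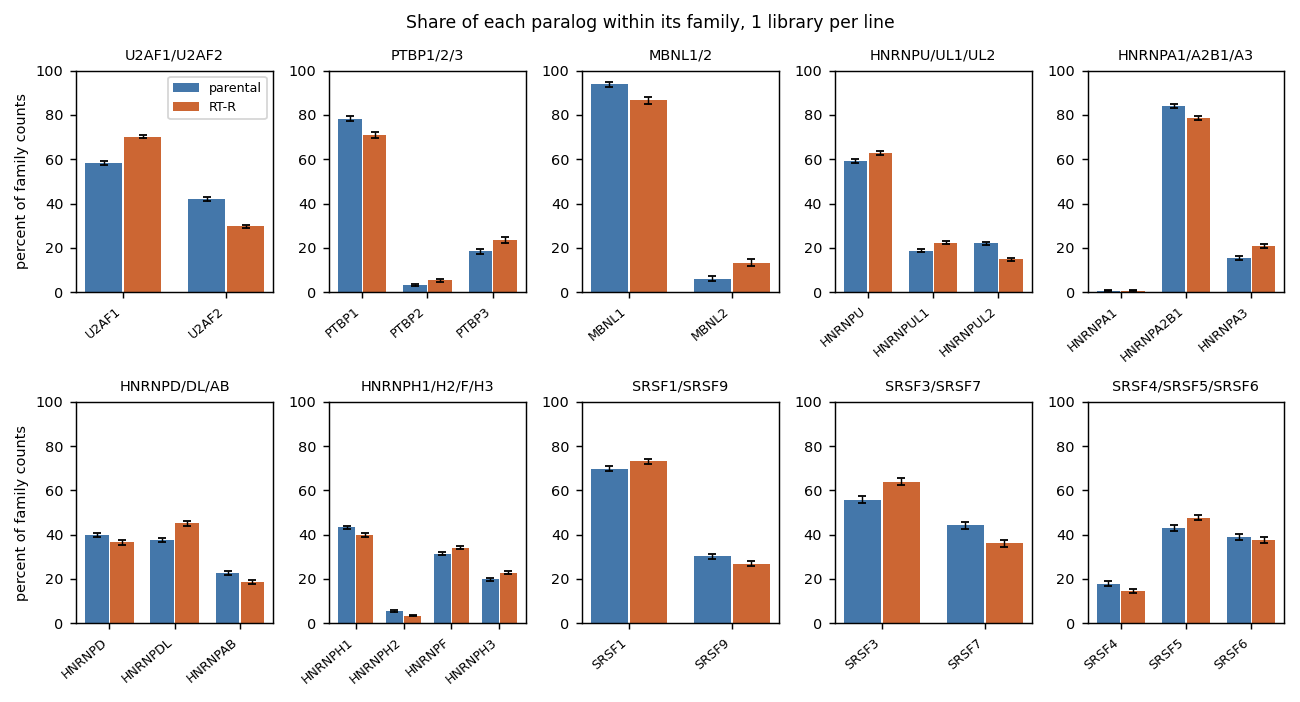
Share of each gene in the summed counts of its group, in percent, for the parental (blue) and RT-R (orange) library. Error bars are exact binomial 95% intervals. U2AF1 and U2AF2 are subunits of a heterodimer, and the other groups hold relatives. The U2AF pair moves from 58.2% to 70.2% U2AF1, and MBNL2 from 6.15% to 13.3% of the MBNL pair.

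Among the tissue-type regulators, MBNL2 stood out. MBNL1 and MBNL2 are muscleblind proteins, which promote differentiated splicing patterns and are sequestered by repeat RNA in myotonic dystrophy, and CELF1 opposes them in many exons. MBNL2 had 105 parental and 221 RT-R counts, 1.89-fold higher (1.49 to 2.40). It lies on chromosome 13, where the 228 measured genes had a median log2 ratio of 0.56, and its own 30 neighbours had a median of 0.82 against 0.91 for the gene. With the neighbours subtracted its log2 ratio was 0.10. MBNL1, on chromosome 3, had 1602 and 1441 counts, 1.24-fold lower (1.15 to 1.33), next to neighbours with a median of 0.24. MBNL2 made up 6.15% (5.06 to 7.40) of the counts of the pair in the parental library and 13.3% (11.7 to 15.02) in RT-R. The third muscleblind gene, MBNL3, on the X chromosome and not among the members, had 66 and 22 counts, 3.35-fold lower (2.04 to 5.69).

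CELF1 had 3447 and 3681 counts, a ratio of 0.958 (0.914 to 1.00). RBFOX2, which binds GCAUG and helps to set mesenchymal splicing patterns in breast cells, had 1249 and 1410 counts, a ratio of 1.01 (0.937 to 1.09). QKI, another driver of mesenchymal splicing, had 3378 and 4242 counts and was 1.13-fold higher (1.08 to 1.18), beside a neighbour median log2 ratio of 0.18 against its 0.17.

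Other genes of splicing were followed in lists set by function, to see what the members' small differences stood beside. Of 9 measured kinases and import factors of SR proteins, 3 had a log2 ratio above 0 and 6 below, 0 were called higher at 1.5-fold (13.7% of all measured genes) and 2 lower (11.9%), CLK1 (391 and 279 counts, 1.56-fold lower, 1.34 to 1.83) and PRPF4B (1355 and 1003, 1.51-fold lower, 1.39 to 1.64). CLK1 phosphorylates SR proteins in the nucleus. SR-related proteins had a median log2 ratio of 0.09, with 1 of 19 called higher, ARGLU1 on chromosome 13 (654 and 1142 counts, ratio 1.57, 1.42 to 1.73), and 1 lower, SCAF1 (108 and 70 counts, 1.72-fold lower, 1.26 to 2.36). Of 37 other splicing regulators, 3 (8.11%) were called higher at 1.5-fold and 4 (10.8%) lower, shares at or below the 13.7% and 11.9% of all measured genes. ZRANB2 (712 and 1436 counts, ratio 1.81, 1.65 to 1.98) and CELF2 (362 and 656, ratio 1.62, 1.43 to 1.85) were highest. MBNL3, given above, and NONO, on the X chromosome (2398 and 1435, 1.86-fold lower, 1.74 to 1.99), were lowest.

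Proteins of the core particles mostly had ratios below 1. Sm and U1 proteins had a median log2 ratio of -0.31, with 1 of 12 above 0 and 2 called lower at 1.5-fold, where 11.9% of all measured genes were, SNRPC (4826 and 3285 counts, 1.64-fold lower, 1.57 to 1.71) and PRPF39 (217 and 124, 1.95-fold lower, 1.56 to 2.45). Proteins of the tri-snRNP and the LSM ring had a median of -0.47, with 15 of 19 intervals below 1 (30.4% of all measured genes) and 4 genes called lower at 1.5-fold (11.9%). The lowest were LSM3 (768 and 456 counts, 1.88-fold lower, 1.67 to 2.11) and LSM5 (747 and 478, 1.74-fold lower, 1.55 to 1.96). LSM4 went the other way, with a ratio of 1.12 (1.05 to 1.19). The minor spliceosome list had a median of -0.44 over 9 genes, and its lowest gene, ZRSR2, a relative of U2AF1 on the X chromosome, was 1.82-fold lower (1.43 to 2.33). After subtraction of neighbours these 3 medians were -0.31, -0.41 and -0.16. U2 proteins (median -0.06, 17 genes) and the PRP19 complex and catalytic factors (0.07, 18 genes) had 0 genes called at 1.5-fold in either direction. For comparison, 13.7% of all measured genes were called higher at 1.5-fold and 11.9% lower. The exon junction and decay list had a median of -0.03 over 16 genes, with UPF3A on chromosome 13 called higher (324 and 567 counts, ratio 1.57, 1.37 to 1.80) and its X-linked paralog UPF3B called lower (708 and 450, 1.75-fold lower, 1.56 to 1.98).

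**Figure D5:**
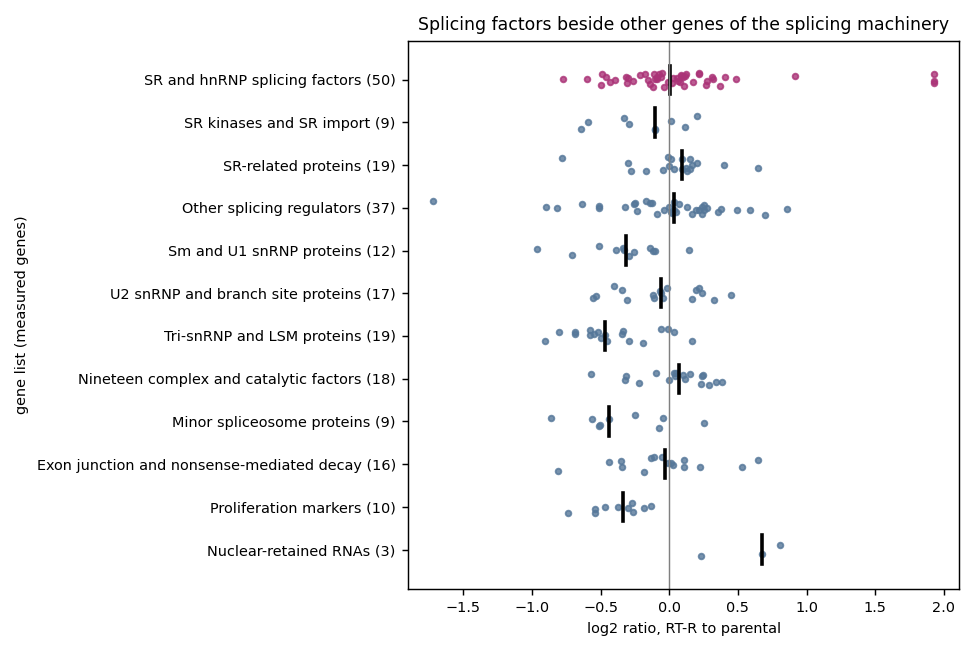
Log2 ratio of RT-R to parental, with a pseudocount of 0.5, for the measured genes of each list (points, spread vertically at random for visibility) and the median of each list (black bar). Number of genes is in brackets. The splicing factors centre on 0.01, the tri-snRNP and LSM proteins on -0.47.

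Measures of cell state also differed. All 10 proliferation markers had an interval below 1, where 30.4% of all measured genes did. Among genes reaching 1000 counts in either library, 1055 of 2257 did. The markers had a median log2 ratio of -0.34 and a range from -0.74 for BUB1 to -0.13 for AURKA. MALAT1, a nuclear RNA that binds SR proteins in speckles, had 36101 and 64377 counts, 1.60-fold higher (1.58 to 1.62), and NEAT1, the RNA of paraspeckles, had 2805 and 5474, 1.75-fold higher (1.67 to 1.83). KCNQ1OT1 was 1.17-fold higher (1.04 to 1.32). The part of proliferation or of nuclear RNA content in the members' ratios was not tested.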

How the data were processed

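Total RNA of each line was made into 3' tag libraries with a Lexogen QuantSeq kit, per the labels' protocols, 1 library per line. Values are raw counts of reads for each gene symbol, whole numbers as the authors deposited them. The submitters' processing notes name the hg19 build with bedtools, Bowtie2 and bcl2fastq 2.20.0.422. For annotation, strand and reads with several matches, the settings were not given in the sources used here. Rows with a repeated symbol were summed (25737 rows, 24462 symbols), and SRSF10 was the 1 repeated member symbol. Libraries were scaled by TMM in edgeR 4.0.16 under R 4.3.3 (RT-R to parental 1.12), with edgeR used for scaling only. Printed ratios are ratios of scaled counts with exact conditional (Clopper-Pearson) 95% intervals from scipy 1.17.1 under Python 3.11.15. Log2 ratios and fold thresholds use a pseudocount of 0.5. Shares carry exact binomial intervals.

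Chromosomal neighbours were taken as 15 measured genes to either side in the RefSeq table of GRCh38.p14, matched by symbol or unambiguous synonym (98.6% of measured genes). Transcripts came from GENCODE release 29, and promoters and pseudogene status from RefSeq. Calls and intervals were tried on simulated counts with counting error alone, the error the intervals assume. That check does not bear on variation between cultures or on PCR copies. The design allows no test across samples. The lists and members were chosen with earlier results of these data known. Every member is named. Intervals are given for those past 1.5-fold, for the ends of each role group ordered by whichever interval bound was closer to 1, and for the most abundant, and other lists are named by up to 2 genes at each end. The related rows RPL36A-HNRNPH2, BSCL2 and HNRNPA1P10 were named after their values were seen. The alternatives were other scalings (total counts, upper quartile, DESeq2 1.42.0), count minimums, row handling, pseudocount, fold alone, the mean, and subtraction of neighbours. A marker of another cell type and a stretch of sequence are not reported here.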

Additional observations from a re-analysis of the deposited data

How the results depend on the processing

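The number of members called higher rests mostly on the HNRNPCL rows, which have few reads. The 3 members called 2-fold higher became 0 with a minimum of 100 counts, with a minimum of 1000 and without the HNRNPCL and readthrough rows. The 4 called 1.5-fold higher became 1, 0 and 1 under these same settings. The 2 called 1.5-fold lower became 1 with total-count scaling, upper-quartile scaling, subtraction of chromosomal neighbours and a minimum of 1000 counts. The minimum of 1000 counts and the left-out rows were chosen after seeing the data, as was summing HNRNPA1 with its copies, which changed no count of calls. The median log2 ratio of the members lay between -0.04 and 0.05 under the alternatives, and the mean was 0.09. Without the HNRNPCL and readthrough rows the mean was -0.02. All these values lay within 0.09 of the reported 0.01. That 0.09 is the median counting half-width of single members and does not measure the error of a median or mean. HNRNPH2 changed sign after subtraction of neighbours, to 0.027. MBNL2 (0.10) and HNRNPUL2 (-0.58) fell short of 1.5-fold there, and HNRNPAB passed it (-0.68). Over the values of single members under the alternatives, 450 kept their call and stayed within their counting interval, and 23 others moved beyond it, all 23 after subtraction of neighbours. No paired analysis was possible because each line has 1 library. Members with few counts, such as SRSF12 and HNRNPA1, had intervals too wide to show differences of the size seen in the others.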
